A study of Mus musculus with 24 samples.

Results

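The 8 genes described here encode S100 calcium-binding proteins of the mouse: S100a1, S100a4, S100a6, S100a8, S100a9, S100a10, S100a11 and S100a13. They were chosen by name. Each is represented by the probe set that carries its symbol alone and has the highest mean over all arrays, and together they are 8 of the 19938 genes tested. Total RNA from each of 6 groups was put on 4 Affymetrix whole-transcript arrays, 24 in all.

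Cells of 3 kinds were used, each with an inflammatory supernatant or in RPMI medium (media). C57epi.1 is an epithelial line of C57BL/6 origin, taken from the upper part of the reproductive tract. Bm12.4 is a line of the same tissue from B6(C)-H2-Ab1bm12/KhEgJ mice, which carry a mutant MHC class II beta chain. Macrophages were derived with GM-CSF from femur bone marrow of C57BL/6 mice. The supernatant was conditioned RPMI at 33% (v/v), made by incubating a CD4 T cell clone specific for Chlamydia with infected epithelial cells, and its final interferon-gamma concentration was 4 ng/ml. What else the conditioned medium held is not stated in the labels. Each strain is represented by 1 line, so strain and line cannot be told apart. How long the cells were treated, and the age of the mice, is not stated in the labels.

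S100 proteins are small and carry paired EF-hand motifs. Most act as dimers: calcium binding exposes a surface through which the dimer grips a partner protein such as an annexin or a myosin heavy chain. Some are also released, and S100a8 with S100a9 then acts on receptors such as Tlr4 and Ager and withholds metal ions from microbes. Most S100 genes lie together in a single cluster, and all 8 described here are on mouse chromosome 3. On GRCm38.p6, S100a1, S100a13, S100a4, S100a6, S100a8 and S100a9 lie in that order between bases 90511034 and 90695721. S100a11 and S100a10 lie further along, the whole set spanning 3054 kb.

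Levels below are the deposited values, taken as log2, so a difference of 1 is a 2-fold difference. Levels of different genes cannot be compared because each depends on its own probes. Array medians lay between 5 and 5.19, and arrays of a group correlated at 0.967 to 0.9975. Macrophage markers set the kinds apart: 10 of 10 were called lower in each line than in macrophages in media, with a median difference of −7.46 for C57epi.1 and of −7.26 for Bm12.4. The median of 11 epithelial markers lay at 4.97 to 5.27 on C57epi.1 arrays and 4.67 to 4.97 on Bm12.4 arrays, beside 4.69 to 4.9 on macrophage arrays, and its members diverged. In media 4 of the 11 were called higher and 1 lower in C57epi.1 than in macrophages, and 2 higher and 1 lower in Bm12.4. The shares of all genes there were 22.7% higher and 21.8% lower for C57epi.1, and 22.1% higher and 20.8% lower for Bm12.4. The keratin Krt19 averaged 11.32 in C57epi.1 and 11.77 in Bm12.4, against 4.32 in macrophages, and Krt14 averaged 11.12 in C57epi.1 and 7.95 in Bm12.4, against 4.81 in macrophages. Epcam averaged 3.67 to 3.75 in the 4 groups of the lines, beside 3.71 to 3.79 in macrophages, and Cdh1 averaged 4.3 to 4.5 in the lines, against 6.65 to 7.25 in macrophages. All 5 measured interferon-response check genes rose with supernatant in each kind. Differences were tested with limma over all 19938 genes and called at a Benjamini-Hochberg adjusted p under 0.05. P-values are two-sided and measure the spread between these arrays, which the labels do not state to be separate cultures.

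With supernatant, S100a4 was called lower in macrophages as well as in both lines, C57epi.1 and Bm12.4. It was the only one of the 8 genes called in all 3 kinds, and 0.552% of all genes were called lower in each. In C57epi.1, 6 of 8 genes fell (S100a1, S100a4, S100a6, S100a10, S100a11 and S100a13), where 10.4% of all genes were called lower. In Bm12.4, S100a4 alone of the 8 fell, where 2.7% of all genes were called lower. In macrophages 3 of 8 fell (S100a1, S100a4 and S100a6), where 6.31% of all genes were called lower. No member was called higher with supernatant in any kind, a direction taken by 8.85% of all genes for C57epi.1, 4.54% for Bm12.4 and 6.13% for macrophages.

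**Figure D1:**
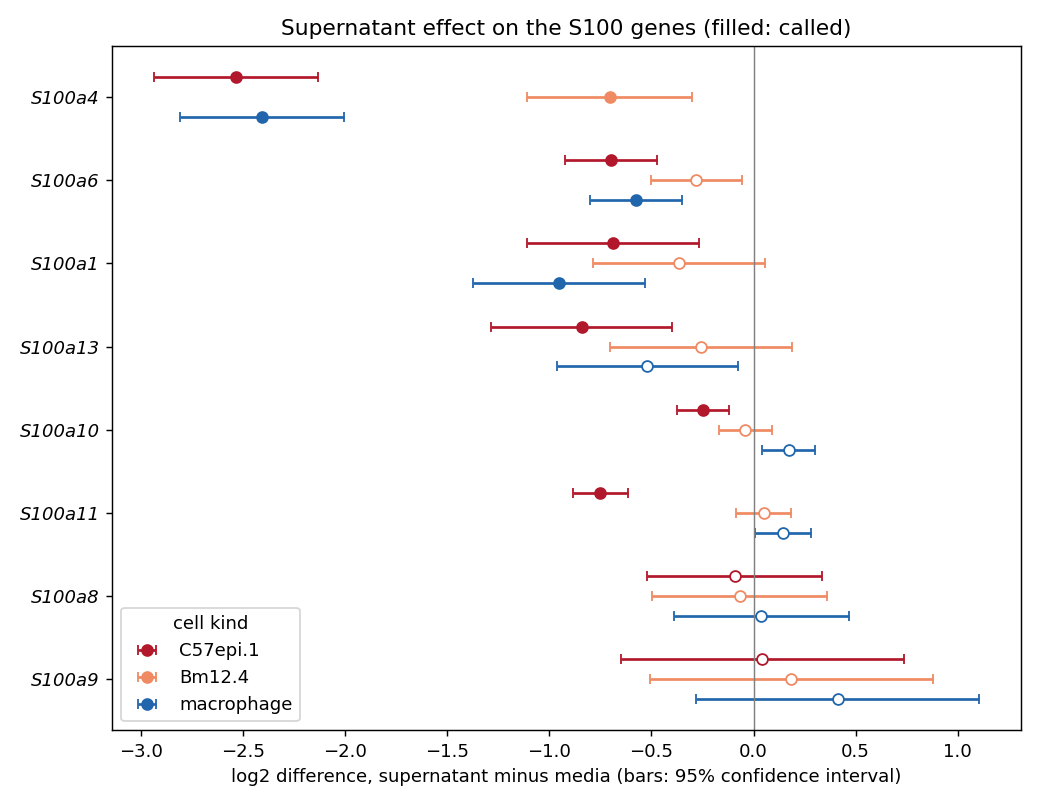
Difference between supernatant and media for the 8 S100 genes, in log2 units, with 95% confidence intervals of the fit, for C57epi.1, Bm12.4 and macrophages; filled points were called. S100a4 lies left of 0 in all 3 kinds, at −2.54 for C57epi.1, −0.70 for Bm12.4 and −2.41 for macrophages, while S100a11 moves left in C57epi.1 alone.

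S100a4 encodes a protein that binds non-muscle myosin IIA (the product of Myh9), is known for its part in cell motility, and is much used as a marker of fibroblasts and of some myeloid cells. Its promoter window is shown because S100a4 was the member that changed in every kind of cell. The window covers 250 bases before to 50 after the RefSeq start of the gene (GRCm38.p6, chr3:90603520-90603819, plus strand), and the capitals mark a TATA box.
S100a4: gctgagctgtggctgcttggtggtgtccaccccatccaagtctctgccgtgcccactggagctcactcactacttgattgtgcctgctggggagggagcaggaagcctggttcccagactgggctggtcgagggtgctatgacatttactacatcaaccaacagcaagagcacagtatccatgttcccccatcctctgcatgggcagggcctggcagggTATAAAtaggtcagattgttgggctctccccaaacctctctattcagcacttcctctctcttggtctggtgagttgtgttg

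In C57epi.1, S100a4 read 7.79, 7.63, 7.57 and 7.96 with supernatant, against 10.18, 9.8, 10.62 and 10.49 in media. Every supernatant array lay below every media array. The difference was −2.54 (SE 0.194, adjusted p = 1.6e-09), a level 5.8-fold lower, and only 1 of the 19938 genes fell further.

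In macrophages S100a4 read 6.03, 6.08, 6.56 and 6.8 with supernatant, against 8.84, 8.9, 8.69 and 8.67 in media. Again no arrays overlapped. The difference was −2.41 (SE 0.194, adjusted p = 3.72e-09), 5.31-fold lower, the 8th lowest of all genes.

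In Bm12.4 the gene read 7.95, 8.17, 7.33 and 8.2 with supernatant, against 8.54, 8.66, 8.43 and 8.84 in media. The groups did not overlap, but the gap between them was small beside the other kinds. The difference was −0.70 (SE 0.194, adjusted p = 0.026), 1.63-fold lower. This call was lost without Bm12.4 supernatant replicate 3, the lowest array (−0.51, adjusted p = 0.12), without media replicate 2 (adjusted p = 0.0555) or media replicate 4 (adjusted p = 0.0802). It was also lost when only the arrays compared were fitted (adjusted p = 0.101) or each array was centred on its median (adjusted p = 0.0519). Fitted over the Bm12.4 arrays alone with the replicate block that their numbers bear out, it was called (adjusted p = 0.0193).

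The size of the S100a4 response differed between kinds. It was stronger in C57epi.1 than in Bm12.4 (difference of responses −1.83, SE 0.275, adjusted p = 0.000323), and Bm12.4 differed from macrophages by 1.70 (SE 0.275, adjusted p = 0.000258). Between C57epi.1 and macrophages the responses differed by −0.13, with a 95% interval of −0.70 to 0.44 (adjusted p = 0.855).

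The level of S100a4 in media was highest in C57epi.1 (10.27 ± 0.37, SD, n = 4), above macrophages (8.78 ± 0.11) and Bm12.4 (8.62 ± 0.18). C57epi.1 exceeded Bm12.4 by 1.66 (SE 0.194, adjusted p = 5.4e-07) and macrophages by 1.5, while Bm12.4 against macrophages was −0.16 (adjusted p = 0.578) and their arrays overlapped. With supernatant the lines were not told apart by the test, at 7.74 ± 0.18 in C57epi.1 and 7.91 ± 0.40 in Bm12.4 (difference −0.18, adjusted p = 0.613). Both then stood above macrophages at 6.37 ± 0.37, by 1.37 for C57epi.1 and 1.54 for Bm12.4.

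Some markers of fibroblasts and other stromal cells fell beside S100a4 in C57epi.1 and macrophages, but none was called in Bm12.4. In C57epi.1, 5 of 14 stromal markers were called lower with supernatant, where 10.4% of all genes were. Among them were Pdgfra, a growth factor receptor of mesenchymal cells (−2.18), and the collagen genes Col3a1 (−1.04) and Col1a1 (−0.61). In macrophages another 5 of 14 were called lower, where 6.31% of all genes were, led by the fibronectin gene Fn1 (−1.63). In Bm12.4 none of 14 were, where 2.7% of all genes were called lower. Summed up as the median of the list per array, stromal markers lay at 9.63 to 10.08 with supernatant and 9.85 to 10.95 in media in C57epi.1. They lay at 7.09 to 8.18 with supernatant and 6.53 to 7.53 in media in Bm12.4, and at 5.3 to 5.9 with supernatant and 6.05 to 6.1 in media in macrophages. Their part in the S100a4 result was not tested, and in bulk RNA fewer cells of a type and less RNA per cell cannot be told apart.

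**Figure D2:**
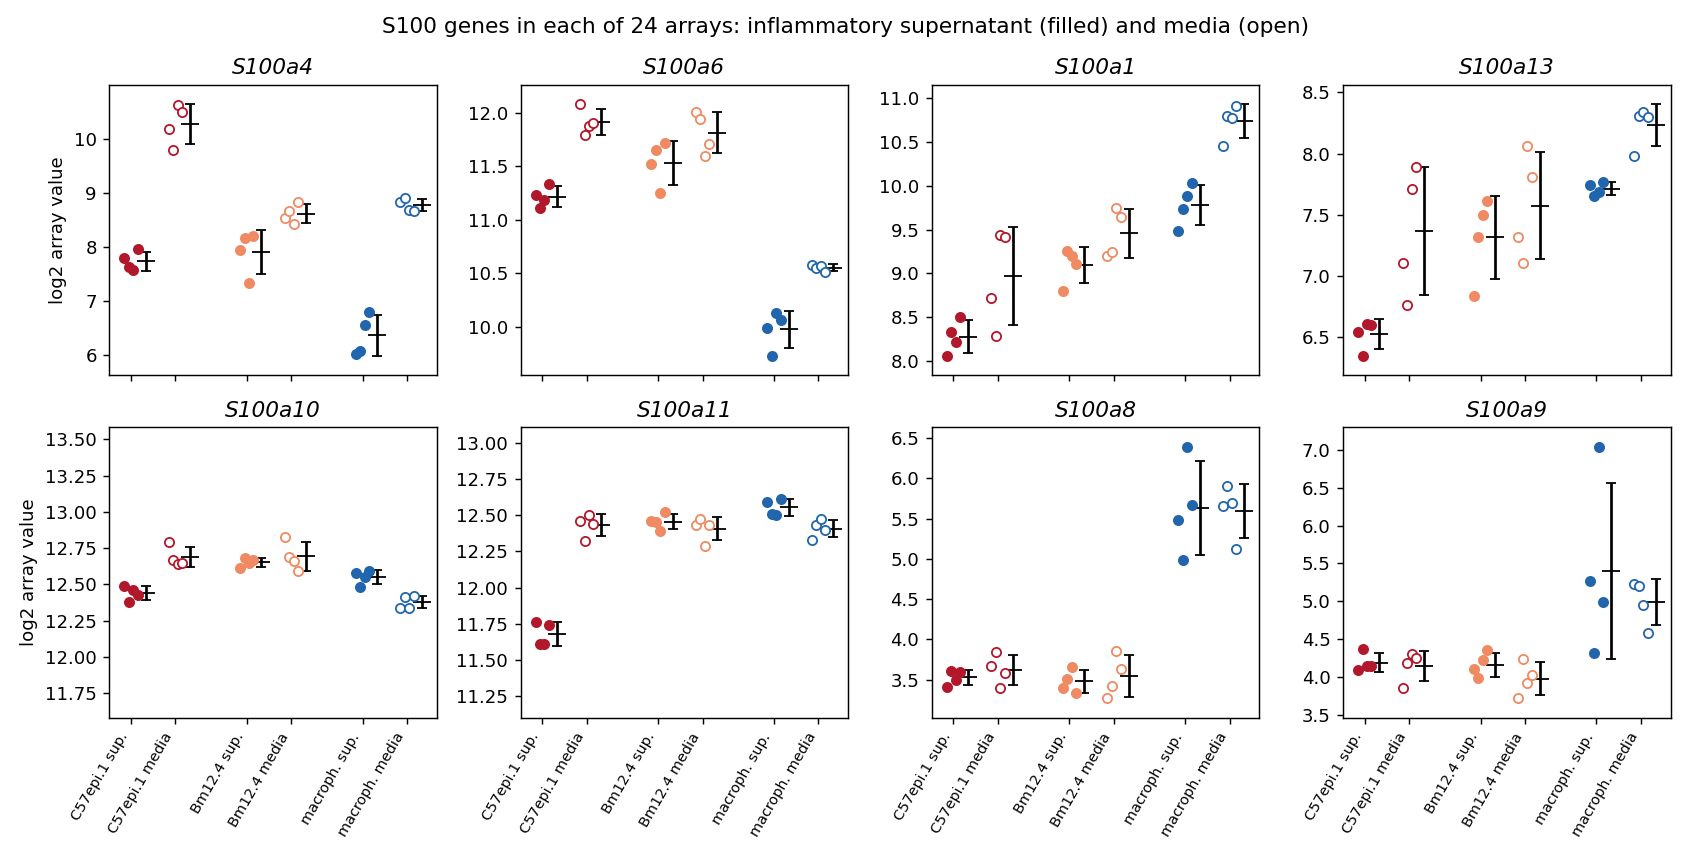
Log2 level of each of the 8 S100 genes on every array, in a panel per gene, by cell kind, with supernatant (filled) left of media (open); bars show the mean and SD of 4 arrays. S100a4 and S100a6 sit lower with supernatant, S100a8 and S100a9 stay near 3.5 to 4.2 in both lines and are higher and more scattered in macrophages.

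S100a6, or calcyclin, is known for its tie to proliferating cells and binds the ubiquitin ligase adaptor encoded by Cacybp. In C57epi.1 it read 11.23, 11.11, 11.19 and 11.34 with supernatant, against 12.08, 11.79, 11.88 and 11.91 in media. In macrophages it read 9.99, 9.73, 10.13 and 10.06 with supernatant, against 10.58, 10.55, 10.57 and 10.51 in media. Neither pair of groups overlapped, and the differences were −0.70 in C57epi.1 (SE 0.108, adjusted p = 5.53e-05) and −0.58 in macrophages (SE 0.108, adjusted p = 0.000555). The macrophage call was lost within replicates 3 and 4 (−0.44, adjusted p = 0.0523). In Bm12.4 the arrays overlapped, at 11.25 to 11.72 with supernatant and 11.6 to 12.01 in media, and the difference of −0.28 was not called (adjusted p = 0.142).

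S100a6 levels separated the lines from macrophages in both treatments. All 16 arrays of the lines exceeded all 8 macrophage arrays, by 1.36 for C57epi.1 and 1.26 for Bm12.4 in media, and with supernatant by 1.24 for C57epi.1 and 1.56 for Bm12.4. Between the lines in media the difference was 0.10 and not called, and with supernatant C57epi.1 differed from Bm12.4 by −0.32 (adjusted p = 0.0282). That last call was lost on leaving out several single arrays, with adjusted p reaching 0.115. It was also lost with arrays centred on their median (adjusted p = 0.117) and within replicates 3 and 4 (−0.22, adjusted p = 0.289). S100a6 holds a CCAAT box 228 bases before its start on the minus strand, a motif that 37.4% of all windows searched contain.

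S100a1 is best known in striated muscle, where its protein tunes calcium release channels, and S100a13 takes part in the release of Fgf1 and Il1a from cells by a route outside the secretory pathway. The genes are neighbours on opposite strands. Their RefSeq starts, at 90514330 for S100a1 on the minus strand and 90514435 for S100a13 on the plus strand, are 105 bases apart and point away from each other. RefSeq lets the S100a13 gene as a whole begin further upstream, at 90514233, so the annotated genes overlap by 98 bases. The window of S100a13 (GRCm38.p6, chr3:90514185-90514484, plus strand) is shown because it holds both starts and 204 of its bases also belong to the window of S100a1. Capitals mark the stretch that both starts bound.
S100a13 and S100a1: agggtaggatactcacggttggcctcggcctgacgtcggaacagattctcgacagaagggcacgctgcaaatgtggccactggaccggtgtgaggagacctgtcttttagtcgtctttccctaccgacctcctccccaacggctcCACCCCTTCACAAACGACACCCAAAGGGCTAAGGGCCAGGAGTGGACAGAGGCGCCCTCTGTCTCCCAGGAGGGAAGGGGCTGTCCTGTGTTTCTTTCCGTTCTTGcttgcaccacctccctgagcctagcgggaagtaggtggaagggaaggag

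The levels of S100a1 and S100a13 followed each other over the arrays. Pearson's r was 0.935 over 24 arrays and 0.836 for deviations from the group means. As these arrays share 6 groups and some of the spread inside them, the value is a description. In the window above no motif of those reported here was found on either strand.

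**Figure D3:**
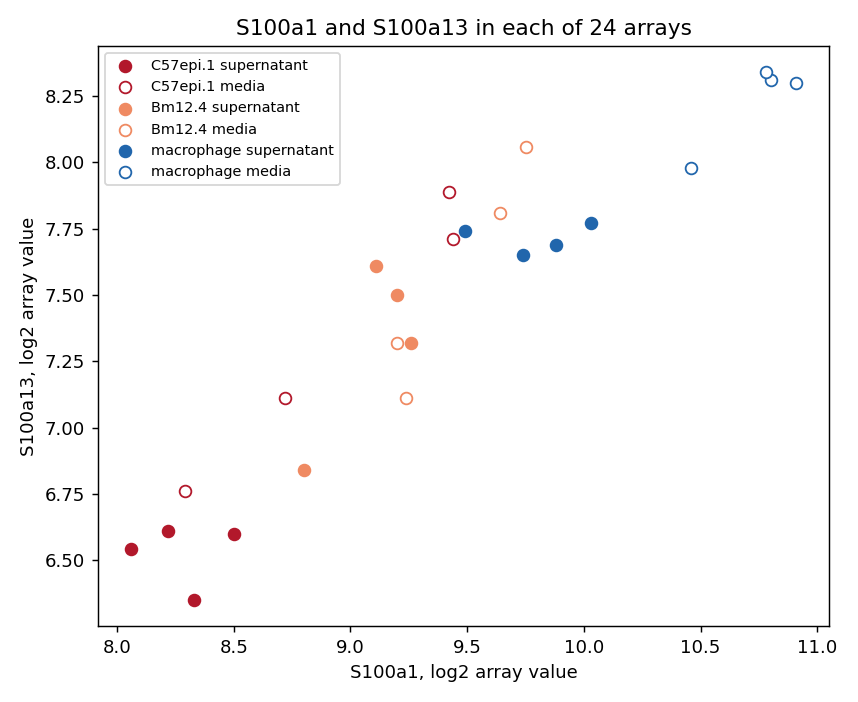
S100a1 level against S100a13 level on each of the 24 arrays, both in log2 units, with kinds by colour and supernatant (filled) or media (open). The arrays run along a single rising band, r = 0.935, with macrophages in media at the top and C57epi.1 with supernatant at the bottom.

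With supernatant, S100a1 read 9.49, 9.74, 9.88 and 10.03 in macrophages, against 10.46, 10.8, 10.78 and 10.91 in media. No arrays overlapped, and the gene fell by 0.95 (SE 0.203, adjusted p = 0.00197). S100a13 was lower on all 4 supernatant arrays too, at 7.74, 7.65, 7.69 and 7.77, against 7.98, 8.31, 8.34 and 8.3 in media, but its difference of −0.52 (SE 0.214) was not called (adjusted p = 0.137). S100a13 was called there when only the arrays compared were fitted (adjusted p = 0.00243) and within replicates 3 and 4 (adjusted p = 0.00368).

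In C57epi.1, S100a13 read 6.54, 6.35, 6.61 and 6.6 with supernatant, against 7.11, 6.76, 7.71 and 7.89 in media, without overlap (−0.84, SE 0.214, adjusted p = 0.00662). S100a1 read 8.06, 8.33, 8.22 and 8.5 with supernatant, against 8.72, 8.29, 9.44 and 9.42 in media. The groups overlapped through media replicate 2, and the difference was −0.69 (SE 0.203, adjusted p = 0.018).

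Both genes were unevenly spread over the media arrays of the lines. In C57epi.1 media, replicates 3 and 4 were higher than replicates 1 and 2 for both, and in Bm12.4 media likewise (S100a1 9.75 and 9.64 against 9.2 and 9.24, S100a13 8.06 and 7.81 against 7.32 and 7.11). Within replicates 1 and 2 the C57epi.1 differences were −0.31 for S100a1 (adjusted p = 0.395) and −0.49 for S100a13 (adjusted p = 0.115). Within replicates 3 and 4 they were −1.07 (adjusted p = 1.6e-05) for S100a1 and −1.20 (adjusted p = 4.53e-06) for S100a13. Both pairs of arrays gave the same direction, and only replicates 3 and 4 gave calls when fitted alone. With fewer arrays, a missing call does not show where the call over all replicates came from. Over 18 alternatives the S100a1 call was kept in 13 and the S100a13 call in 17.

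Cell cycle genes split the same media arrays. The median level of the 14 measured genes of that list was 10.56, 10.45, 9.55 and 9.5 in C57epi.1 media and 10.38, 10.45, 7.58 and 7.93 in Bm12.4 media, so that the arrays high in S100a1 and S100a13 were the low ones in cell cycle genes. With supernatant the list's median per array was 9.8 to 10.17 in C57epi.1 and 8.94 to 10.29 in Bm12.4, and none of its 14 genes was called in either line. The shares of all genes were 8.85% higher and 10.4% lower in C57epi.1, and 4.54% higher and 2.7% lower in Bm12.4. In macrophages 5 of the 14 were called lower with supernatant, where 6.31% of all genes were. The part of cell cycle genes in the S100a1 and S100a13 results was not tested.

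Leaving out single arrays also ended the S100a1 call in C57epi.1: adjusted p was 0.0607 without supernatant replicate 1, 0.0912 without media replicate 3 and 0.0904 without media replicate 4. In Bm12.4 neither gene was called with supernatant, at −0.36 for S100a1 (adjusted p = 0.377) and −0.26 for S100a13 (adjusted p = 0.605). Within replicates 3 and 4 of Bm12.4 both were called, at −0.54 for S100a1 (adjusted p = 0.00755) and −0.38 for S100a13 (adjusted p = 0.0428). The S100a1 response did not pass the test of a difference between any kinds, and nor did that of S100a13. Within replicates 3 and 4 alone, the S100a13 response differed between C57epi.1 and Bm12.4 (−0.82, adjusted p = 0.00592) and between C57epi.1 and macrophages (−0.60, adjusted p = 0.0195).

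Macrophages had the highest level of both genes. In media the mean of S100a1 was 8.97 ± 0.56 for C57epi.1, 9.46 ± 0.28 for Bm12.4 and 10.74 ± 0.19 for macrophages (SD, n = 4 each), a difference from macrophages of −1.77 for C57epi.1 and −1.28 for Bm12.4. The mean of S100a13 was 7.37 ± 0.52 for C57epi.1, 7.58 ± 0.44 for Bm12.4 and 8.23 ± 0.17 for macrophages. Between the lines in media S100a1 differed by −0.49 (adjusted p = 0.0883). This became a call with the replicate block (adjusted p = 0.0187 in the fit of all arrays, 0.0322 in that of the lines in media alone). Same-numbered arrays correlated there, but C57epi.1 replicates 2 and 3 were closest to Bm12.4 replicates 1 and 4. With supernatant C57epi.1 differed from Bm12.4 by −0.82 for S100a1 and −0.79 for S100a13, and both were called.

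S100a10 and S100a11 are partners of annexins, proteins that bind membranes when calcium rises. S100a10, also called p11, is an S100 protein that no longer binds calcium and forms a complex with annexin A2. S100a11 binds annexin A1 and takes part in membrane repair. Both read above 11.5 on every array. The window of S100a11 (GRCm38.p6, chr3:93520246-93520545, plus strand) is shown because that gene responded in a single kind of cell. Its capitals mark 2 AP-1 motifs, 136 and 38 bases before the start.
S100a11: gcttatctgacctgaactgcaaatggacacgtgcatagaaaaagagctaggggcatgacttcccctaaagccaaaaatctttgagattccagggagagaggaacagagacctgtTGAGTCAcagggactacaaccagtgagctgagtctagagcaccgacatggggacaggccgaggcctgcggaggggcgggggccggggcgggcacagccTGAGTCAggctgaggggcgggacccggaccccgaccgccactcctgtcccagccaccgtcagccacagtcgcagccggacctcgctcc

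In C57epi.1, S100a11 read 11.76, 11.61, 11.61 and 11.74 with supernatant, against 12.46, 12.32, 12.5 and 12.44 in media. The arrays of each group lay close together and far from the other group, with a difference of −0.75 (SE 0.0652, adjusted p = 1.35e-08). A second S100a11 probe set moved by −0.76 (adjusted p = 1.91e-08). RefSeq also annotates a pseudogene, S100a11-ps, whose transcripts these probes may not tell apart.

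Elsewhere S100a11 did not pass the test. Bm12.4 read 12.39 to 12.52 with supernatant and 12.29 to 12.47 in media (0.05, adjusted p = 0.771). Macrophages read 12.5 to 12.61 with supernatant and 12.33 to 12.47 in media, without overlap but with a difference of only 0.14 (adjusted p = 0.186). The response in C57epi.1 differed from that in Bm12.4 by −0.80 (adjusted p = 1.49e-05) and from that in macrophages by −0.90 (SE 0.0922, adjusted p = 6.05e-07). In media the S100a11 means of the 3 kinds lay between 12.41 and 12.43, whereas with supernatant C57epi.1 differed from Bm12.4 by −0.78 (adjusted p = 2.29e-09) and from macrophages by −0.87 (adjusted p = 7.58e-11).

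S100a10 moved little. In C57epi.1 it read 12.49, 12.38, 12.46 and 12.43 with supernatant, against 12.79, 12.67, 12.64 and 12.65 in media, and the groups did not overlap. The difference of −0.25 (SE 0.0621, adjusted p = 0.00598) was called, but not when only the arrays compared were fitted (adjusted p = 0.0501), when arrays were centred on their medians (adjusted p = 0.108), or within replicates 1 and 2 (0.138) or 3 and 4 (0.166). In macrophages it was 12.48 to 12.59 with supernatant, against 12.34 to 12.42 in media (0.17, adjusted p = 0.0784). The responses of C57epi.1 and macrophages differed by −0.42 (SE 0.0878, adjusted p = 0.00277), a call not made within replicates 1 and 2 (adjusted p = 0.14) or 3 and 4 (adjusted p = 0.0684) alone.

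Neither annexin partner moved with these genes. The level of Anxa2 was 11.83 ± 0.25 with supernatant and 11.89 ± 0.15 in media in C57epi.1, and that of Anxa1 was 12.2 ± 0.03 with supernatant and 12.14 ± 0.07 in media (SD, n = 4 each). Neither was called with supernatant in any of the 3 kinds. Among the other annexin genes on the list, Anxa5 (−0.52, adjusted p = 0.000477) and Anxa11 (−0.61, adjusted p = 0.0138) fell in C57epi.1.

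S100a8 and S100a9 form calprotectin, which is abundant in neutrophils and monocytes, binds zinc and manganese, and acts on Tlr4 and Ager once released. In both lines S100a8 read 3.27 to 3.86 and S100a9 3.72 to 4.37, below the array medians. Without detection p-values such levels cannot be told from background. Their windows are shown because these members were higher in macrophages than in both lines.

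The window of S100a8 is chr3:90668821-90669120 on the plus strand and that of S100a9 is chr3:90695672-90695971 on the minus strand (GRCm38.p6). The capitals mark a TATA box in each and, at the far end of the S100a9 window, a C/EBP motif.
S100a8: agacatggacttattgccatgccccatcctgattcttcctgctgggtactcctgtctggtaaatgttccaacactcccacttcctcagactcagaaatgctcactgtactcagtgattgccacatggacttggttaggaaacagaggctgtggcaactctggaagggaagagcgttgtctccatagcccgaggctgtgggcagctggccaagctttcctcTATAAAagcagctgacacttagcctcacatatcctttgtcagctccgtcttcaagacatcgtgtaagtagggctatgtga
S100a9: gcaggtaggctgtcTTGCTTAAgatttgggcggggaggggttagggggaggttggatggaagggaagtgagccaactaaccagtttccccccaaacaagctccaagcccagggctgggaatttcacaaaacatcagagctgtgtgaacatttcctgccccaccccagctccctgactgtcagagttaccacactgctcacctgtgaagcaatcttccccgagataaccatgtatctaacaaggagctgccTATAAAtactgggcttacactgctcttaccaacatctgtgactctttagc

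In macrophages S100a8 read 5.48, 4.99, 6.39 and 5.67 with supernatant, against 5.66, 5.91, 5.69 and 5.12 in media. S100a9 read 5.27, 4.31, 7.04 and 4.99 with supernatant, against 5.23, 5.2, 4.95 and 4.58 in media. For each the groups overlapped, with 1 supernatant array, replicate 3, above the rest. The differences were 0.04 for S100a8 (adjusted p = 0.965) and 0.41 for S100a9 (adjusted p = 0.569). Without supernatant replicate 3 they were −0.21 for S100a8 (adjusted p = 0.558) and −0.13 for S100a9 (adjusted p = 0.791). Within replicates 1 and 2 alone S100a8 turned, to −0.55 (adjusted p = 0.0487).

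The pair moved together from array to array, with r = 0.844 over 24 arrays and 0.770 for deviations from the group means, a description over arrays that share 6 groups. Supernatant replicate 3 of the macrophages was the highest of the 4 for 4 of 18 neutrophil marker genes, Ly6g (5.59), Ngp (4.08), Cxcr2 (4.76) and Chil1 (5.66), beside the 4.5 that an even share among 4 arrays gives. Ngp and Cxcr2 lay below the median of that array (5.05), as did the granule genes Elane (3.92) and Mpo (4.15). On the other macrophage arrays Elane read 4.05 to 4.92 and Mpo 4.28 to 5.03. The median of the 18 markers lay at 4.72 to 4.96 on macrophage supernatant arrays and 4.37 to 4.69 on macrophage media arrays, and at 3.93 to 4.35 in the lines. Their part in the spread of S100a8 and S100a9 was not tested.

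**Figure D4:**
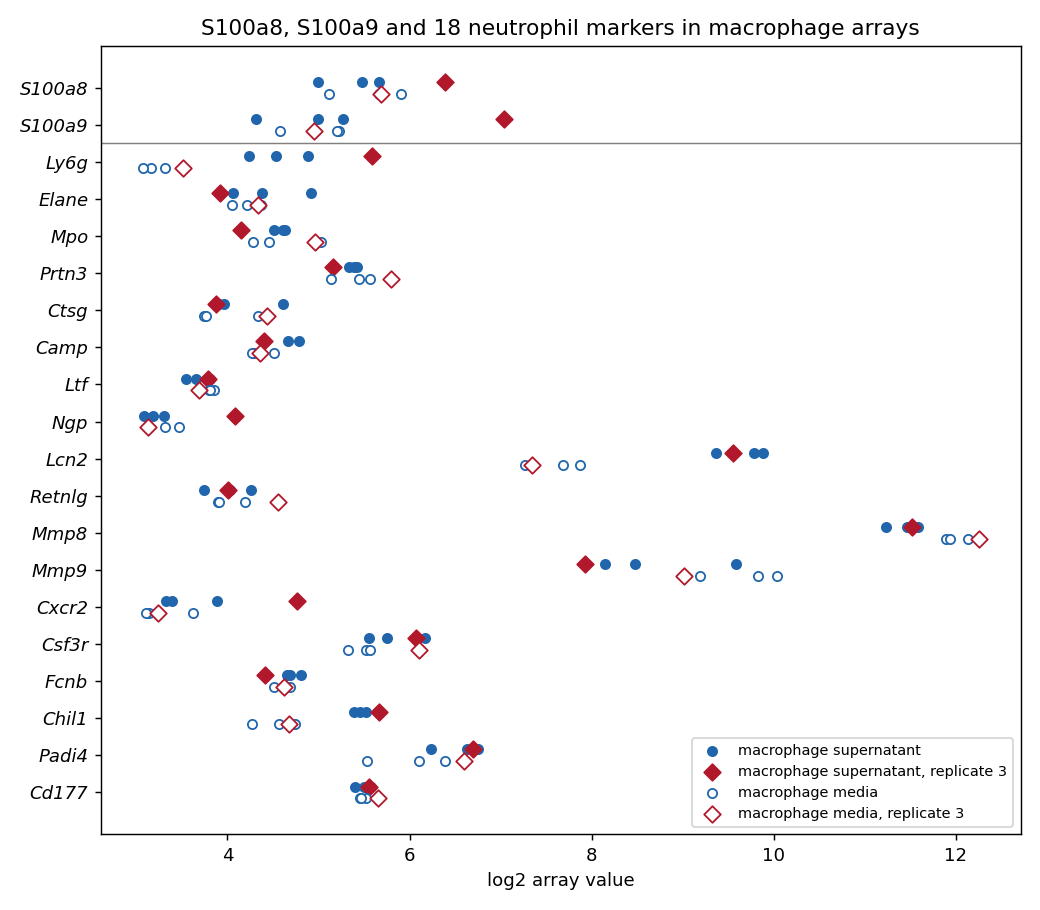
S100a8, S100a9 and neutrophil marker levels (log2, horizontal axis) on the 8 macrophage arrays, with supernatant (filled) above media (open) for each gene. The supernatant array of replicate 3 stands highest for S100a8 (6.39), S100a9 (7.04) and Ly6g (5.59).

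With supernatant, macrophages had 3 of the 18 neutrophil marker genes called higher: Lcn2, an iron-scavenging protein (2.11), Ly6g (1.55) and Chil1 (0.94). Mmp9 was called lower (−0.98). Of all genes, 6.13% were called higher there and 6.31% lower. In Bm12.4, Lcn2 (2.79), Mmp8 (1.12) and Chil1 (0.85) were called higher, where 4.54% of all genes were. In C57epi.1 none of 18 were called higher, against 8.85% of all genes. So Lcn2 rose with supernatant in macrophages and Bm12.4, where S100a8 and S100a9 were not called.

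Against macrophages, S100a8 differed by −1.98 for C57epi.1 and −2.05 for Bm12.4 in media, and by −2.11 in C57epi.1 and −2.16 in Bm12.4 with supernatant, without overlap. S100a9 differed by −0.84 for C57epi.1 and −1.01 for Bm12.4 in media, and with supernatant by −1.22 in C57epi.1 and −1.24 in Bm12.4. Arrays overlapped for S100a9 with supernatant, and without macrophage supernatant replicate 3 the values were −0.67 for C57epi.1 (adjusted p = 0.00521) and −0.69 for Bm12.4 (adjusted p = 0.00424). Within replicates 1 and 2 the C57epi.1 call was lost (−0.56, adjusted p = 0.103). These are differences against values near background in the lines. The S100a9 call of C57epi.1 against macrophages in media (adjusted p = 0.0438) was lost under 11 of 17 alternatives, with adjusted p reaching 0.407.

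The list of regulators held 6 measured transcription factor genes known to act on calprotectin genes in myeloid cells. Spi1, which encodes the myeloid factor PU.1, averaged 3.85 ± 0.09 with supernatant and 4.21 ± 0.23 in media in C57epi.1, but 11.51 ± 0.17 with supernatant and 11.08 ± 0.11 in media in macrophages. With supernatant, 2 of the 6 were called higher in macrophages, Spi1 (0.43) and Cebpe (0.42), and Cebpa (−1.05) was called lower. In C57epi.1 Cebpb (0.80) was called higher and Cebpe (−0.47) and Spi1 (−0.36) lower, both at levels below the array medians. None of the 6 was called in Bm12.4. Of all genes, 6.13% were called higher and 6.31% lower in macrophages. The shares were 8.85% higher and 10.4% lower in C57epi.1, and 4.54% higher and 2.7% lower in Bm12.4.

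Counted over the members, 7 of 8 differed between C57epi.1 and macrophages in media. Of these 3 were higher, where 22.7% of all genes were called higher, and 4 lower, where 21.8% were. Bm12.4 differed from macrophages in 6 of 8, with 2 higher (22.1% of all genes) and 4 lower (20.8%). S100a6 and S100a10 (0.31 for C57epi.1, 0.32 for Bm12.4) were higher, and S100a1, S100a8, S100a9 and S100a13 lower, in each line than in macrophages. Within replicates 3 and 4 the Bm12.4 calls of S100a9 (adjusted p = 0.163) and S100a10 (adjusted p = 0.0627) were lost. For S100a13 the arrays of Bm12.4 and macrophages overlapped. Its call was lost without Bm12.4 media replicate 1 (adjusted p = 0.0525) or 2 (adjusted p = 0.0735). In supernatant C57epi.1 had 2 members higher (23% of all genes) and 5 lower (24%) than macrophages. Bm12.4 had 2 higher (21.9%) and 3 lower (21.9%).

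Between the lines, 1 of 8 members differed in media, S100a4, which was higher in C57epi.1, as 12% of all genes were. With supernatant they differed in 5 of 8: S100a1, S100a6, S100a10 (−0.21, adjusted p = 0.0107), S100a11 and S100a13 were all lower in C57epi.1, as 15.6% of all genes were. The S100a10 call was lost with centred arrays (adjusted p = 0.105), within replicates 1 and 2 (adjusted p = 0.245) and within replicates 3 and 4 (adjusted p = 0.124). The comparison in supernatant uses the same arrays as the supernatant effects of both lines, so the counts are not independent. Of the 8 responses, 2 were lower in C57epi.1 than in Bm12.4 (2.04% of all genes), 2 lower in C57epi.1 than in macrophages (4.94%) and 1 higher in Bm12.4 than in macrophages (3.19%).

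All 21 genes on the list of S100 receptors and binding partners were measured. With supernatant 4 were called lower in C57epi.1, where 10.4% of all genes were, and none was called higher in any kind. Beside Anxa5 and Anxa11 these were Mcam (−1.27, adjusted p = 2.67e-06) and Nptn (−0.35, adjusted p = 0.00195), cell surface proteins reported in human cells as receptors of S100A8 or S100A9. The median difference of the list was −0.13, against −0.045 for all genes. In Bm12.4 only Alcam fell (−0.51, adjusted p = 0.0364), and in macrophages Nptn (−0.38) and Ahnak, a large scaffold that binds S100a10 (−0.56), fell.

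Between kinds more of the list differed, as did more of all genes. In media 2 of 21 were called higher and 9 lower in C57epi.1 than in macrophages, and 2 higher and 12 lower in Bm12.4. Of all genes, 22.7% were called higher and 21.8% lower in C57epi.1, and 22.1% higher and 20.8% lower in Bm12.4. With supernatant the counts against macrophages were 4 higher and 9 lower for C57epi.1 and 1 higher and 12 lower for Bm12.4. The shares of all genes were then 23% higher and 24% lower for C57epi.1, and 21.9% in each direction for Bm12.4. Cd36, a scavenger receptor, differed from macrophages by −9.68 for C57epi.1 and −9.65 for Bm12.4 in media, and Il1a, cargo of the S100a13 export route, by −5.2 in C57epi.1 and −5.14 in Bm12.4. The lines read 2.99 to 3.08 for Cd36 and 3.16 to 3.28 for Il1a as group means, levels that cannot be told from background. Tlr4 averaged 8.04 ± 0.22 with supernatant and 8.47 ± 0.69 in media in C57epi.1. It averaged 9.78 ± 0.16 with supernatant and 9.74 ± 0.49 in media in Bm12.4, and 9.77 ± 0.18 with supernatant and 9.32 ± 0.03 in media in macrophages. Ager stayed between 5.5 and 5.72 in the 6 group means, and Myh9 and Cacybp were not called with supernatant in any kind.

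Outside the 8 members, 9 further S100 genes were measured. None was called with supernatant, though 1 gene for C57epi.1, 1 for Bm12.4 and 0 for macrophages had an unadjusted p under 0.05. The one large difference was S100a16, a broadly expressed family member, which averaged 5.65 ± 0.31 for C57epi.1 and 8.37 ± 0.32 for Bm12.4 in media. The difference between the lines was −2.72 (adjusted p = 5.56e-12), and −2.80 with supernatant (adjusted p = 2.94e-12). Bm12.4 exceeded macrophages in S100a16 by 3.14 in media and 2.92 with supernatant. S100a16 and S100a4 thus differed between the lines in opposite directions in media.

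Genes with the most similar pattern were found by Pearson's r over the 24 arrays among 7101 genes, the 2 highest per member. These candidates had a range of at least 1 log2 unit over the 6 group means, without S100, predicted, Riken or LOC genes. S100a10 (range 0.315) and S100a11 (0.87) fall below that range themselves, so genes with as small a range were not considered for them. For S100a4 these were Papss1 (0.901) and Ppa2 (0.890), for S100a6 Ints7 (0.978) and Cd109 (0.975), and for S100a1 Aldh2 (0.966) and Pcbd2 (0.958). S100a13 was most like Atraid (0.973) and Abtb1 (0.966), and S100a8 most like Nlrp1b (0.982) and Clec4a1 (0.979). For the remaining members these were Ms4a8a (0.886) and Cd72 (0.872) for S100a9, Xkr5 (0.817) and Nmral1 (0.812) for S100a10, and Chst12 (0.924) and Slc25a11 (0.869) for S100a11. The arrays share 6 groups, so any gene with similar group means ranks high.

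Motifs were searched on both strands of the promoter windows of 7 members (all but S100a10) and of the 32851 windows kept. These leave out the windows of a whole chromosome, which is not that of the members. Shares of all windows refer to the windows kept. The ISRE core (GAAA, any 2 bases, GAAA) occurred in 0 of 7 windows and 3.44% of all, and the kappa B motif (GGGA, any 2 bases, TTCC) in 0 of 7 and 1.47%. The GAS motif (TTCNNNGAA) was found in 0 of 7 and in 8.3% of all. A TATA box (TATAAA) was found in 3 of 7, S100a4, S100a8 and S100a9, and in 13.6% of all windows. It lay 31 bases before the start in S100a4 and 30 before it in S100a8, but at the annotated start itself in S100a9. The AP-1 motif (TGANTCA) was found in S100a11 only, against 7.81% of all windows, and the C/EBP motif (TTGCNNAA) in S100a9 only, against 10.8%. These matches describe the letters of the windows.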

How the data were processed

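GCOS, Partek 6.2 and RMA are the tools named in the submitters' processing notes, without their order or, for GCOS and RMA, a version. Values were deposited as log2 with 2 decimals, for 28853 probe sets on 24 arrays, and all 24 columns matched a sample. RMA aligns array distributions and compresses low levels, so small fold changes near background are understated. No detection p-values were used, and the number of arrays, 4 per group, limits the precision.

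Probe sets were named from the platform annotation. Those with a single symbol (21789) were kept, with the highest-mean probe set per gene, which left 19938 genes. One limma 3.58.1 model (R 4.3.3, lmFit and eBayes with defaults) gave each of 6 groups a mean and a shared spread, with 18 residual degrees of freedom, and 12 comparisons were tested from it: the supernatant effect in each kind, the 3 pairs of kinds in media and in supernatant, and the 3 differences between responses. P-values were adjusted by Benjamini-Hochberg over all genes. The procedure was tested on simulated data.

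The members and gene lists were chosen with earlier results of these data known. Beyond the members, genes of the lists were named if called, at most the 4 of largest difference per list and comparison, with a member's own partners. Neutrophil markers named without a call and the S100 genes outside the list were chosen after their values were seen. Promoter windows are those of RefSeq for GRCm38.p6, and 7 of 8 members matched.

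Replicate numbers were checked by correlating the deviations of same-numbered arrays from their group means. All 4 correlations were over 0.1 for Bm12.4 with supernatant against media (0.226 to 0.683) and for C57epi.1 against Bm12.4 in media (0.512 to 0.625), and not in the other comparisons. In the latter, replicates 2 and 3 of C57epi.1 correlated best with replicates 1 and 4 of Bm12.4, so the numbers paired only in part. The fit without a replicate block is the main one. Alternatives were the replicate block, only the arrays compared, replicates 1 and 2 or 3 and 4 alone, other probe set choices, centring, quantile normalization, a filter leaving out genes with no group mean of at least 6, trend and robust eBayes, and each array left out in turn. A fit of only the arrays compared with the block was added after seeing the data for the 2 comparisons named above.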

Additional observations from a re-analysis of the deposited data

Results flagged for a closer look

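S100a13 in macrophages in media had an array apart from the others: replicate 1 read 7.98 beside 8.3 to 8.34, a gap that takes up 0.889 of the range of the group. Chance flags about 1 in 20 groups, and 48 groups were examined.

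Of the member responses to supernatant, 5 differed between kinds by the interaction test. S100a4 responded less in Bm12.4 than in macrophages, with a difference of 1.70, and more in C57epi.1 than in Bm12.4, with a difference of −1.83. S100a11 responded in C57epi.1 by −0.895 relative to macrophages and by −0.80 relative to Bm12.4. S100a10 in C57epi.1 differed by −0.42 from macrophages. The comparisons of C57epi.1 share its arrays, and each kind enters 2 of the 3 differences.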

How the results depend on the processing

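Of 96 member results, 46 were called, and 33 of these kept their call under every alternative that could be run, while 13 lost it under at least 1. Of 50 not called, 7 were called under at least 1 alternative, and a single result reversed, S100a8 in macrophages within replicates 1 and 2 (−0.55, adjusted p = 0.0487). Counts of members called moved by over 1.5 times as follows, and the cause was not tested. For C57epi.1 against Bm12.4 in media, where 1 was called, the count was 2 with the replicate block, 2 within replicates 1 and 2, and 2 over only the arrays compared with the replicate block. The supernatant effect in Bm12.4, where 1 was called, gave 0 with only the arrays compared, 0 with arrays centred on their median and 3 within replicates 3 and 4. The supernatant effect in C57epi.1 gave 3 in place of 6 within replicates 1 and 2, and its difference from the macrophage response gave 1 in place of 2. For C57epi.1 against Bm12.4 in supernatant the count was 3 in place of 5 within replicates 3 and 4 and with centred arrays. For Bm12.4 against macrophages in supernatant it was 3 in place of 5 with the filter on low values, which left out S100a8 and S100a9. Leaving out 1 array at a time gave 5 to 6 for the supernatant effect in C57epi.1, 0 to 1 in Bm12.4 and 3 to 3 in macrophages. Against macrophages in media it gave 6 to 7 for C57epi.1 and 5 to 6 for Bm12.4, and between the lines 1 to 2. With supernatant it gave 7 to 7 for C57epi.1 and 5 to 5 for Bm12.4 against macrophages, and 4 to 5 between the lines. The differences between responses stayed at 2 for C57epi.1 against macrophages, 1 for Bm12.4 against macrophages and 2 for C57epi.1 against Bm12.4. The replicate block made the S100a13 difference in macrophages a call (adjusted p = 0.0362), where array numbers do not pair. It also made that of S100a1 between the lines in media a call, where they pair only in part. It changed no other call. Signal near background limits S100a8 and S100a9 in the lines.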
